A study of Mus musculus with 8 samples.

Results

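The Sprouty and Spred genes encode inhibitors that act on growth factor signalling from within the cell. All 7 mouse genes of the group, Spry1, Spry2, Spry3, Spry4, Spred1, Spred2 and Spred3, were followed here in NIH3T3 fibroblasts. Every non-control probe that carried one of these gene names was taken, which gave 7 of the 35715 gene names on the array. They had 9 of its 55681 probes, with 3 probes for Spred1 and 1 for each other gene. All 9 were among the 30852 probes tested, and 8 of them were well above background on all 8 arrays. The exception was Spry4, which entered the test through the serum and no serum arrays and was not well above background on any cordycepin array.

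Growth factors in serum activate receptor tyrosine kinases, which pass the signal through adaptors and Ras to Raf, MEK and ERK. Sprouty and Spred proteins share a cysteine-rich C-terminal domain that takes them to membranes, where they restrain the steps between the receptor and Raf. In many cells Sprouty genes are themselves switched on by ERK signalling, so that they form a negative feedback loop, and Spred proteins carry the Ras GAP neurofibromin to the membrane.

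NIH3T3 is an established line of mouse embryo fibroblasts. Cells were kept for 24 h in medium with 0.5% newborn bovine serum. The 3 cordycepin plus serum samples then received 20 uM cordycepin, which is 3'-deoxyadenosine, in 0.1% DMSO for 90 min, with serum present for the last 30 min by the treatment protocol. The figure legend of the study instead says that the 30 min of serum followed the drug or vehicle period. That would make the drug exposure longer than 90 min. The 3 serum samples received DMSO and serum on the same timing, and the 2 no serum samples stayed starved, with DMSO given to control plates by the protocol although their own labels name no vehicle or time. The groups therefore share the line and the starvation, and no sample received cordycepin without serum. The design text speaks of independent triplicates without saying whether these were separate cultures on separate days, so that p-values measure the spread between these arrays.

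Each sample was hybridised to 1 single-colour Agilent mouse 60K array, and all 8 lay on 1 slide. Between 51.1% and 57.1% of probes were well above background on an array, and no spot was saturated. Across probes, arrays of a group correlated at 0.992 to 0.995, and cordycepin arrays correlated with the others at 0.965 to 0.976. All 10 fibroblast markers examined, collagens and vimentin among them, were well above background on all 8 arrays. None of 5 epithelial and none of 4 muscle markers were so on all 8, but only 2 of each list were above background on no array. Krt8 was above background on 3 cordycepin, 2 serum and 2 no serum arrays, and Cldn4 on 2 no serum arrays only. Des and Myod1 were each so on 1 cordycepin array. Of the endothelial markers Pecam1, Kdr and Tek exceeded background on all 8 arrays and Cdh5 on none. Among leukocyte markers Ptprc was above background on 1 array of each group and Cd3e on all 8. Cd68 rose by 3.04 on the log2 scale with cordycepin (limma, adjusted p = 5.17e-05), from a mean normalised log2 signal of -0.10 in serum to 2.94. Its part in the results on Sprouty genes was not tested. A lower signal in all cells and a loss of signal from some of the cells cannot be told apart in such samples.

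The probes are 60 bases long and, on the mm9 build used in the files, lie at chr3:37543403-37543462 on the plus strand for Spry1 and at chr14:106291845-106291904 on the minus strand for Spry2. The Spry3 probe is placed on an unassembled stretch of the X chromosome. Spred2 is probed at chr11:19922416-19922475 on the plus strand, and Spred3 at chr7:29944517-29944576 on the minus strand. The exon or UTR in which a probe lies was not analysed here. The first 30 bases of the 3 Spred1 probes are shown because these probes gave different answers. The brightest lies at chr2:117005906-117005965 and the middle one at chr2:117004952-117005011, and both carry the same transcript accession. The dim one, at chr2:116998491-116998550, carries the accession of another Spred1 transcript.
Spred1 brightest probe: cattaatattttcagtttgtttaaccactt
Spred1 middle probe: gtgatatgctccagcaaacaggttaaaaat
Spred1 dim probe: caacctcttcattgtttaatgttctggtct

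Promoters are shown for the genes that changed and for those that did not, because the immediate early genes of the serum response are read out through short motifs near their start sites. The table of RefSeq promoters (GRCm38.p6) matched 5 of the 7 genes. It did not hold Spry3 and Spry4. The 250 bases before the start are given 5' to 3' on the strand of the gene, with a motif match in capitals.
Spry1, chr3:37639697-37639946, plus strand: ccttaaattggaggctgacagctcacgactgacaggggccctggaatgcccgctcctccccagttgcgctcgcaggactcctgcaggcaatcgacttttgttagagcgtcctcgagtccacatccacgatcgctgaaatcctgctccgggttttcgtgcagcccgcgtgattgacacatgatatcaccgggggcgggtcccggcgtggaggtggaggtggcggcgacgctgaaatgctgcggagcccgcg
Spry2, chr14:105896820-105897069, minus strand: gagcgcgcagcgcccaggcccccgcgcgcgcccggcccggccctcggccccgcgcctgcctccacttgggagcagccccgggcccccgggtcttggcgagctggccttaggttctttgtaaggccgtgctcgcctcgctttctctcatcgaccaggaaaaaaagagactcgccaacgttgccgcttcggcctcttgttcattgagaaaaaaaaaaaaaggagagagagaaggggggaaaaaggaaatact
Spred1, chr2:117120821-117121070, plus strand: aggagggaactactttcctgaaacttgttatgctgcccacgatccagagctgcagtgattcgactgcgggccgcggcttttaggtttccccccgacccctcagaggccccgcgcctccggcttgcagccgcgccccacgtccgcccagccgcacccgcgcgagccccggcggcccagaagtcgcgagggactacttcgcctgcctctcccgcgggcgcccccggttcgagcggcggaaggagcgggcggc
Spred2, chr11:19924192-19924441, plus strand: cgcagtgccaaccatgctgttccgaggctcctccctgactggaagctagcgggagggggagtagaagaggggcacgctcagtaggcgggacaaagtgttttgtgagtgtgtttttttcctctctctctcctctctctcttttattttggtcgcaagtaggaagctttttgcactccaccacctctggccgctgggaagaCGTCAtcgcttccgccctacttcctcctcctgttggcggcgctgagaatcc
Spred3, chr7:29168648-29168897, minus strand: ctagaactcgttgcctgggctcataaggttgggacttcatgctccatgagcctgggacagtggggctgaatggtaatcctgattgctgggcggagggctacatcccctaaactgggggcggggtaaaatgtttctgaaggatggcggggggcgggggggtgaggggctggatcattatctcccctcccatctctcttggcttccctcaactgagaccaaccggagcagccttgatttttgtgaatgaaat
The Spry1 and Spry2 windows both had a GC content of 62.4%, that of Spred1 had 70.8%, that of Spred2 56% and that of Spred3 55.6%, against a median of 52.4% over 32851 windows of this length. Both strands were searched for the CArG box of SRF, which 1.47% of all windows held, for the ETS motif CCGGAAGT (2.88% of windows), for the CRE TGACGTCA (1.55%), for the short CRE site TGACG (17.8%), which every full CRE contains, for the AP-1 motif TGANTCA (6.75%) and for the EGR motif GCGGGGGCG (2.57%). The single match among the 5 genes was a short CRE site on the reverse strand of Spred2, 51 bases before the start. No match says only that these letters are not in the window.

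The comparison of serum with no serum asked whether 30 min of serum altered the inhibitors. No Sprouty or Spred gene passed the test. Of the 7 genes 0 passed at an adjusted p under 0.05 by limma, and 0 had an unadjusted p under 0.05, whereas 2.27% of all probes tested passed the former and 10.3% the latter. At these shares a count of 0 is not a result particular to the 7 genes. The 7 log2 differences lay between -0.33 and 0.29, with a median of 0.02, beside a median of -0.02 over all probes. In the same arrays Fos, the classic immediate early gene, rose by 4.86 on the log2 scale (SE 0.29, adjusted p = 0.000209).

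Spry1 restrains receptor signalling upstream of Ras. Values are log2 of the processed signal over the 75th percentile of the array. It read 2.57 and 2.49 without serum, and 2.41, 2.37 and 2.50 with serum. These groups overlapped and differed by -0.10, with a 95% interval from -0.49 to 0.28. Spry2, which binds the adaptor Grb2 and the ubiquitin ligase Cbl, read 0.97 and 1.16 without serum and 1.30, 1.53 and 1.24 with it. All serum values of Spry2 lay above the no serum values, as they did for 9.71% of all probes, but the difference of 0.29 (95% interval -0.02 to 0.60) did not pass (adjusted p = 0.548). Spry4, an inhibitor of the route from receptor to Ras and Raf, read -3.68 and -3.82 without serum and -3.33, -3.34 and -3.96 with it. Its difference of 0.21 had an interval from -0.32 to 0.74, which reaches 1.67-fold upwards. Spry3, the least studied Sprouty gene, read -2.87 and -2.47 without serum and -3.01, -3.02 and -2.95 with it, and all its serum values lay below the no serum values, as for 13.6% of all probes (difference -0.33, adjusted p = 0.803). For Spred1, Spred2 and Spred3 the groups overlapped, and the differences of 0.02, -0.10 and 0.15 had intervals within -0.63 and 0.63.

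**Figure D1:**
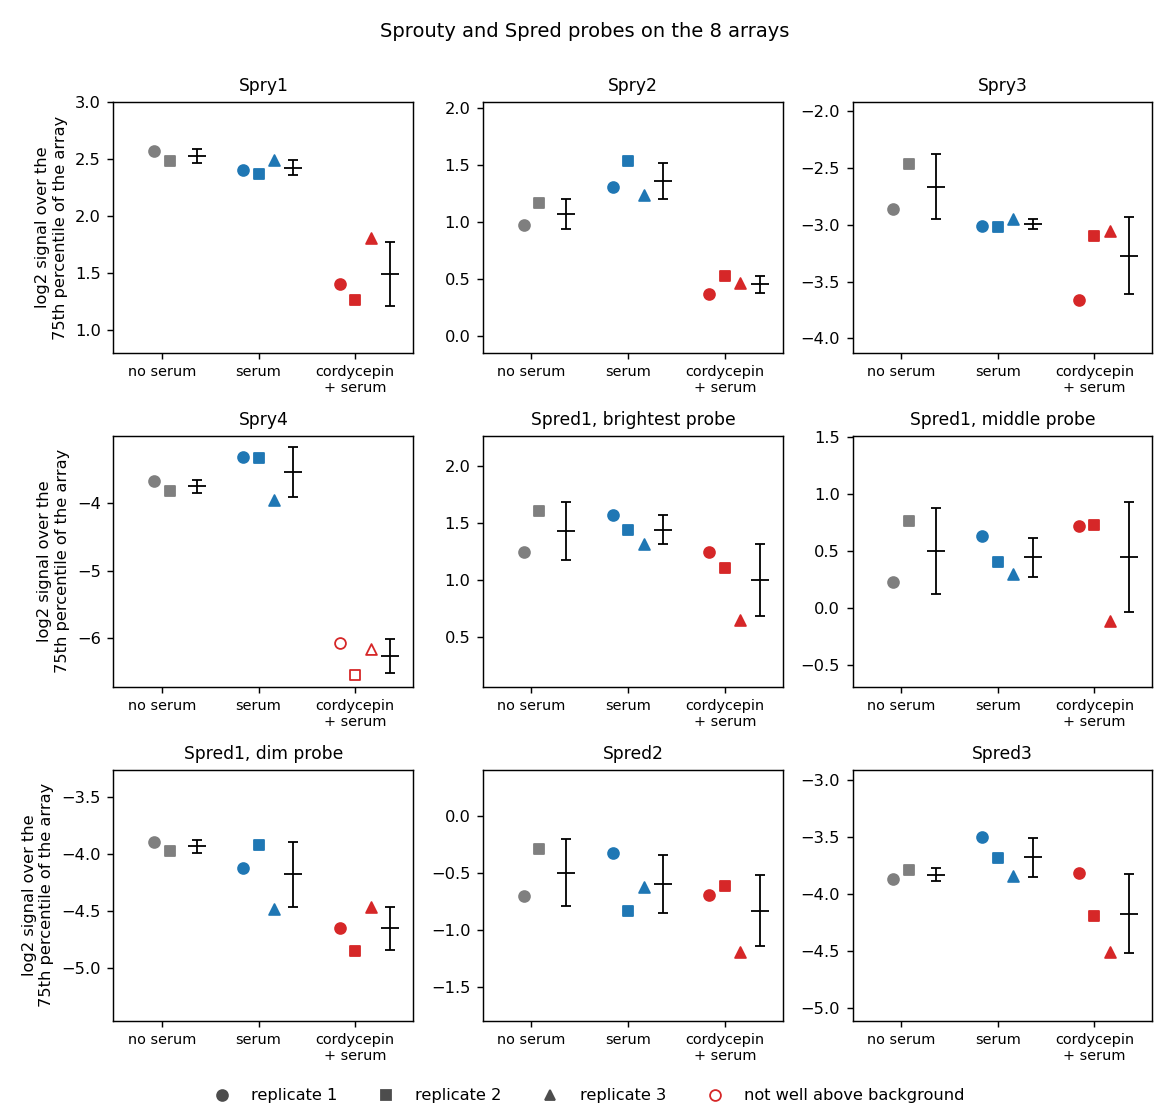
Normalised log2 signal (log2 of processed signal over the 75th percentile of the array) of the 9 Sprouty and Spred probes on each array, by group, with symbols for the replicate number and the mean and SD of each group drawn to the right of its points. The y axes differ in level but each spans a range fitted to its probe. The cordycepin arrays lie below all others for Spry1 (1.27 to 1.81), Spry2 (0.37 to 0.52), Spry3 (-3.67 to -3.06) and Spry4, whose open symbols mark spots not well above background.

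The comparison of cordycepin plus serum with serum alone asked what the drug did to these genes in stimulated cells. Spry1, Spry2 and Spry4 fell, and Spry3 and the 3 Spred genes did not pass the test. Thus 3 of the 7 genes were lower at an adjusted p under 0.05, beside 7.36% of all probes and 7.51% of the probes for RefSeq mRNAs. At an additional minimum of 2-fold 1 of the 7 was called lower, beside 2.87% of all probes, and none was higher. Both counts include Spry4, which entered the test only through the arrays where it was high. By family, 3 of 4 Sprouty genes and 0 of 3 Spred genes were lower at that adjusted p, and a difference between the families was not tested. All 7 differences were negative, with a median of -0.49 on the log2 scale beside 0.10 over all probes. In 5 of the 7 genes every cordycepin array lay below every serum array, as in 13.4% of all probes.

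The Spry4 probe, at chr18:38745923-38745982 (mm9) on the minus strand, read -3.33, -3.34 and -3.96 in serum and -6.06, -6.54 and -6.16 with cordycepin. As no cordycepin spot was well above background, the fall is given against a floor, the lowest signal well above background on each array. Against that floor Spry4 was 3.33-fold lower. The floor is set by other probes and the normexp change given below was smaller, so that this is not a firm minimum. The limma result (adjusted p = 6.92e-05) belongs to the measured difference, not to the floor, and rests on values at background. The measured means were -3.54 ± 0.36 (SD, n = 3) and -6.26 ± 0.25 (SD, n = 3). The probe was dim throughout, with processed signals of 38.2 to 62.3 in serum and 5.24 to 6.44 with cordycepin. With normexp background correction and an offset of 50, which is of the size of these signals, the log2 change shrank to -0.52 (adjusted p = 0.0679), and the call was lost.

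Spry1 read 2.41, 2.37 and 2.50 in serum and 1.41, 1.27 and 1.81 with cordycepin. The groups were apart, with the third cordycepin array nearest to serum. The log2 change was -0.93 with an SE of 0.15 and a 95% interval from -1.28 to -0.59, which is 1.91-fold lower (adjusted p = 0.00296). Without the third cordycepin array the change was -1.09, and Spry1 then also passed the 2-fold minimum, which made 2 of the 7 genes called.

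Spry2 fell by a similar amount, from 1.30, 1.53 and 1.24 in serum to 0.37, 0.52 and 0.46 with cordycepin. Its log2 change was -0.91 (SE 0.12, 95% interval -1.18 to -0.63), or 1.87-fold lower (adjusted p = 0.00114). The cordycepin values of Spry2 were close together, with an SD of 0.08 against 0.16 in serum. Within the upper and the lower row of the slide the differences were -1.07 and -0.63 for Spry1 and -0.86 and -0.92 for Spry2, and with the row as a block both were -0.88. With arrays centred on the spike-in RNA the changes of Spry1 and Spry2 were -0.95 and -0.93, but the SE grew to 0.50 and neither passed (adjusted p = 0.485 and 0.531).

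Spry3 lay lower in every cordycepin array, at -3.67, -3.10 and -3.06, than in serum, at -3.01, -3.02 and -2.95. Most of its difference of -0.28 came from the first cordycepin array, and it did not pass (95% interval -0.71 to 0.15, adjusted p = 0.337). Under normexp the difference was 0.01. Spred3, which lacks a working KIT-binding domain, read -3.50, -3.69 and -3.84 in serum and -3.82, -4.19 and -4.51 with cordycepin. Its groups overlapped by 1 value, and the difference of -0.49 (95% interval -0.92 to -0.07) did not pass (adjusted p = 0.104). It did pass under quantile normalisation (-0.78, adjusted p = 0.0289) and without the first cordycepin array (-0.67, adjusted p = 0.0287).

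Spred2, an inhibitor of Raf activation by Ras, read -0.33, -0.83 and -0.62 in serum and -0.69, -0.61 and -1.19 with cordycepin, and these values overlapped (difference -0.24, 95% interval -0.71 to 0.24, adjusted p = 0.462). Spred1 is the family member best known for binding neurofibromin. Its brightest probe read 1.58, 1.44 and 1.32 in serum and 1.25, 1.11 and 0.65 with cordycepin. The arrays were apart, but the difference of -0.44 (SE 0.18) did not pass (adjusted p = 0.136).

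The other Spred1 probes, whose first bases are printed above, did not tell the same story. The middle probe read 0.63, 0.40 and 0.29 in serum and 0.72, 0.73 and -0.11 with cordycepin, a difference of 0.00 (SE 0.25, adjusted p = 0.995). It thus held 2 cordycepin values above all serum values and 1 below them. The dim probe for the other transcript read -4.12, -3.92 and -4.48 in serum and -4.65, -4.85 and -4.46 with cordycepin (difference -0.48, SE 0.17, adjusted p = 0.0897). In the comparison with no serum, where it read -3.89 and -3.97, the difference was -0.72 (SE 0.19) and the dim probe passed (adjusted p = 0.0369), which the other Spred1 probes did not (adjusted p = 0.22 and 0.927).

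**Figure D2:**
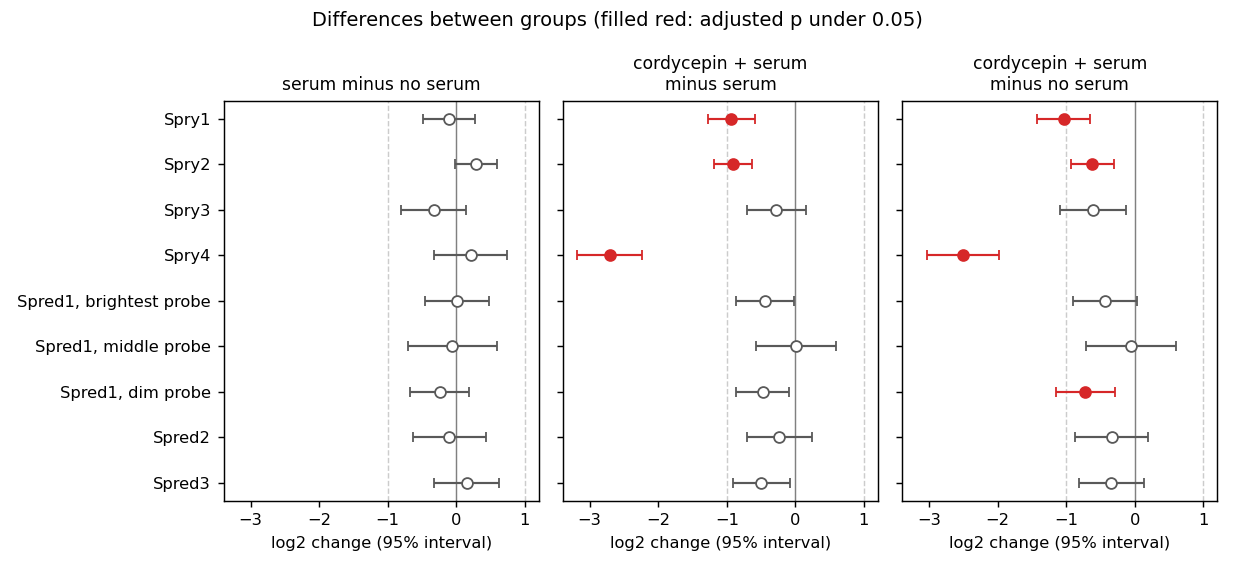
Log2 change of each Sprouty and Spred probe with its 95% interval in the 3 comparisons, with filled red points for an adjusted p under 0.05 and dashed lines at a 2-fold change. With cordycepin plus serum against serum the filled points are Spry1 (-0.93), Spry2 (-0.91) and Spry4 (-2.71, where the cordycepin signal was not well above background), and no point is filled for serum against no serum.

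The comparison of cordycepin plus serum with no serum asked whether the treated cells stood below the starved level. The 2 comparisons with cordycepin share the cordycepin arrays, so that they are not independent. Again 3 of the 7 genes were lower, beside 5.95% of all probes, and these were Spry1, Spry2 and, with the same limit on its entry to the test, Spry4. At the 2-fold minimum Spry1 and Spry4 were called, beside 2.99% of all probes. Against the same floor as above, Spry4 was 2.88-fold lower than in starved cells, which again is not a firm minimum. The limma result for its measured difference (adjusted p = 0.00026) rests on cordycepin values at background. Spry1 fell by 1.04 on the log2 scale (SE 0.17), which is 2.05-fold (adjusted p = 0.00422), and Spry2 fell by 0.62 (SE 0.14), or 1.53-fold (adjusted p = 0.0177). In 4 of the 7 genes, these 3 and Spry3, the cordycepin values lay below both no serum values, as they did in 16% of all probes. Spry3 had a difference of -0.61 (SE 0.21) and did not pass (adjusted p = 0.0983), and the reported probes of Spred1, Spred2 and Spred3 had differences of -0.43, -0.33 and -0.34 (adjusted p = 0.22, 0.391 and 0.323). Spry2 no longer passed when all probes were tested with no filter on dim ones (adjusted p = 0.0754), without the first cordycepin array (0.0533) and without the second no serum array (0.143). The call for Spry4 was lost under normexp (adjusted p = 0.313), and with spike-in centring neither Spry1 (adjusted p = 0.159) nor Spry2 (0.563) passed.

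The values of the 7 genes were then set beside 58 other genes on the way from receptor to ERK, all of which were tested. Of 10 receptors, among them the FGF and PDGF receptors, none passed in any comparison, and none of 9 Raf, MEK, ERK and scaffold genes did. Of all probes 7.36% were lower at the adjusted p with cordycepin than in serum, and 5.95% than without serum. At such shares a count of 0 in lists of this size is not particular to these genes. The median change with cordycepin was -0.14 for the receptors and 0.08 for the Raf to ERK genes. Among 12 adaptor, Ras and Ras GAP genes none was called at 2-fold with cordycepin, but Sos1 rose by 0.96 (adjusted p = 0.000322) and Sos2 fell by 0.88 (adjusted p = 0.00639), which were named after their values were seen. Sos1 and Sos2 encode exchange factors that load Ras with GTP. Of 10 genes that act on Sprouty proteins, such as the ligase Cbl and the kinase Dyrk1a, none passed with cordycepin against serum (median -0.33). The ligase Siah2 rose by 0.82 with serum (adjusted p = 0.0173) and was 0.48 above no serum with cordycepin plus serum (adjusted p = 0.0392), and it was named after its values were seen.

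Some other feedback inhibitors of the pathway did respond to serum. Of 7 such genes 3 rose at least 2-fold with serum, and the rest did not pass. Of all probes 2.27% passed at the adjusted p, either way and with no minimum fold, so that no larger share was called higher. The genes that rose were Dusp5 (log2 change 2.94), a nuclear ERK phosphatase, Errfi1 (2.25), an inhibitor of the EGF receptor, and Dusp6 (1.61), a cytoplasmic ERK phosphatase. With cordycepin 4 of the 7 were called lower than in serum, beside 2.87% of all probes. They were Dusp5 (-3.31), Errfi1 (-3.06), Dusp4 (-1.90) and Dusp6 (-1.37). Il17rd, a membrane inhibitor of FGF signalling also known as Sef, fell by 0.58 without reaching 2-fold (adjusted p = 0.0182). The difference between these genes and the Sprouty genes in their response to serum was not tested. Il17rd itself, with means of 2.56 without and 2.51 with serum, did not pass with serum, and nor did Spry1, Spry2 and Spry4.

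Of 10 genes whose transcription is driven by ERK signalling, 6 rose at least 2-fold with serum and 5 were called lower with cordycepin than in serum. Among the former were Fos, Ier2 (2.66), Ier3 (2.11) and Phlda1 (1.60). Among the latter were Fosl1 (-3.07), Phlda1 (-1.92), Ier2 (-1.69) and Fos (-1.62). Against no serum Fos stayed 3.23 and Ier3 1.36 higher on the log2 scale with cordycepin plus serum, whereas Fosl1 fell by 1.57 and Dusp4 fell by 1.59. Of the 7 other feedback inhibitors 4 were lower in this comparison at the adjusted p and none higher, beside 5.95% of all probes lower. Besides Dusp4 these were Errfi1 (-0.82), Il17rd (-0.63) and Dusp7 (-0.61), named after their values were seen. Of the 10 ERK output genes 1 was lower and 3 were higher. By their measured values Spry1, Spry2 and Spry4 were thus below the starved level in the same arrays in which Fos and Ier3 were above it. For Spry4 this rests on cordycepin values at background and was not called under normexp. Spry1 and Spry2 did not pass in some settings, as given above. Over the 58 genes 9 were called lower with cordycepin than in serum and none higher, with a median of -0.11, and 9 were called higher with serum and none lower. Of all probes 2.87% were called lower with cordycepin than in serum. With serum 2.27% passed either way with no minimum fold, so that no larger share was called higher.

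**Figure D3:**
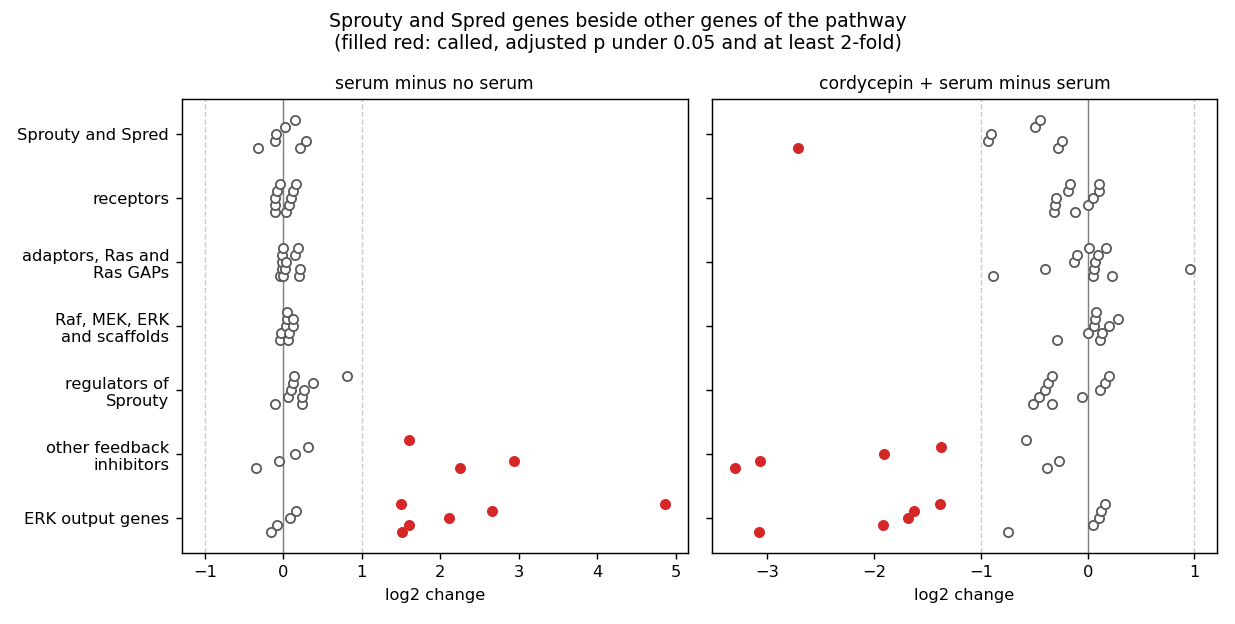
Log2 change of the 7 Sprouty and Spred genes and of 58 other pathway genes, 1 point a gene and 1 row a group, for serum against no serum (left) and cordycepin plus serum against serum (right), with filled red points for genes called at an adjusted p under 0.05 and at least 2-fold. With serum the Sprouty and Spred genes lie between -0.33 and 0.29 while 3 other feedback inhibitors and 6 ERK output genes are called higher.

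Of the 5 Spred probes 4 lay below their group mean in the same 3 arrays as the Etv genes. The Etv genes encode ETS factors of the ERK pathway and were on the list of output genes. The likeness did not extend to every array. In the second serum array these 4 Spred probes lay below their group mean (-0.0049 to -0.24) and the Etv genes above it (0.15 to 0.21). This was noticed after the values were seen and is given as a description with no test. Etv5 was lowest in the third cordycepin array, the third serum array and the first no serum array, at 2.93 to 3.14, while the other 5 arrays read 3.94 to 4.54. Etv1 and Etv4 were lowest in the same 3 arrays, and none of the Etv genes passed with cordycepin or with serum. Both brighter Spred1 probes and Spred3 were also lowest in these 3 arrays. Spred2 was lowest in 2 of them, its lowest serum value being in the second array, and the dim Spred1 probe in 1. Of the Sprouty genes Spry1 was lowest in none of the 3, Spry3 and Spry4 in 1, and Spry2 in 2. Of all probes tested 12.2% were lowest in these same 3 arrays, and 14.7% of RefSeq mRNA probes were, so that the pattern was shared by many genes. The 3 arrays lay in different groups and in both rows of the slide, and what set them apart was not tested.

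**Figure D4:**
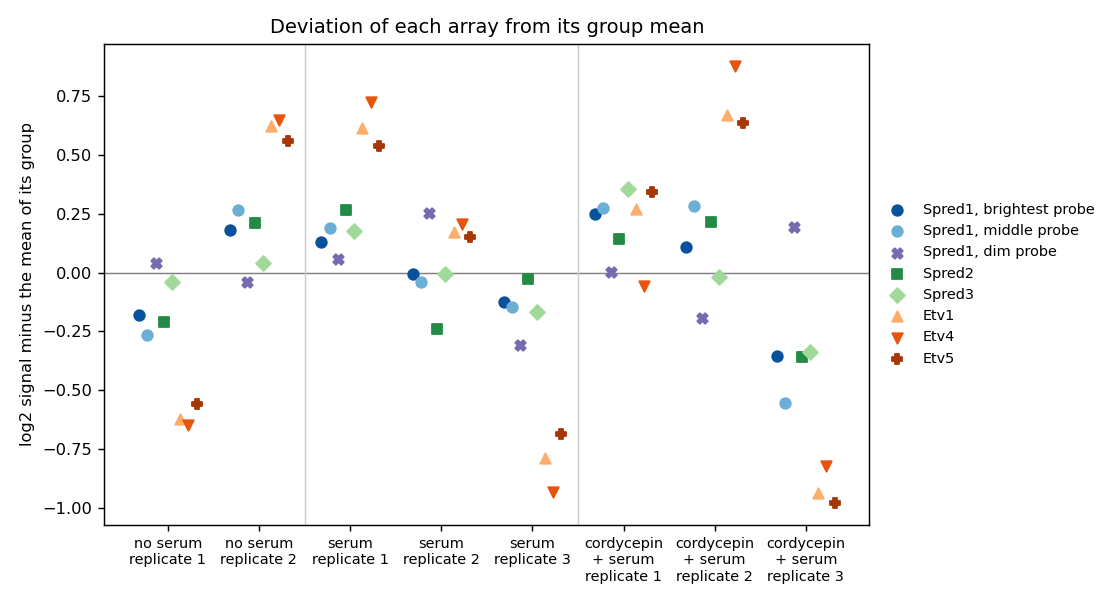
Normalised log2 signal minus the mean of its group for the 5 Spred probes and for Etv1, Etv4 and Etv5, on each of the 8 arrays, with grey lines between the groups. In the third cordycepin, the third serum and the first no serum array all probes but the dim Spred1 probe lie below their group mean, down to -0.98 for Etv5, while the dim Spred1 probe lies at 0.19, -0.31 and 0.04.

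Of all RefSeq mRNA genes called in some comparison and above background on all arrays, 675 in number, those most like the called members over the 8 arrays were listed by Pearson's r of the normalised signal, as a description. For Spry4 these were Ippk (r = 0.992), Zxdc (0.991) and Zbtb1 (0.99), whose log2 changes with cordycepin were -1.96, -1.81 and -1.48 and with serum 0.27, 0.12 and -0.04. For Spry1 they were Prmt6 (r = 0.992), Jrk (0.991) and Fam83h (0.989), with changes of -2.05, -2.35 and -1.55 with cordycepin and -0.32, -0.30 and 0.03 with serum. The 8 points share their slide and fall into the cordycepin arrays and the rest, which sets much of each r. The limit to genes called in these same comparisons also favours a high r. For Spry4 the cordycepin points were not well above background, and it entered the test only through the arrays where it was high.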

How the data were processed

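Total RNA of 8 NIH3T3 samples was labelled with Cy3 and hybridised by the authors to single-colour Agilent mouse 60K arrays. The deposited files are scanner output of Agilent Feature Extraction 10.7.3.1, and the value used is the processed signal intensity of each spot, which per the file headers is corrected for background and not normalised between arrays. The study names limma for its own analysis and gives no normalisation in the sources used here.

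Control spots (3671 of 62976) and spots marked as outliers were left out. The log2 intensity was centred on the 75th percentile of each array, which was 350.5 to 802.2 in processed signal, so that a change is relative to that percentile, and spots of a probe were averaged. A probe was kept if all arrays of some group read it well above background (30852 of 55681). The depth behind a value is 1 spot per member probe, and the number of arrays limits the precision. All 8 arrays were fitted in limma 3.58.1 (R 4.3.3) with 1 mean per group, eBayes and two-sided tests, and the Benjamini and Hochberg adjustment ran over the 30852 probes. A gene passed at an adjusted p under 0.05 and was called with at least a 2-fold change as well. The procedure was tested on simulated data. Genes were reported by the probe with the highest mean, and of the pathway lists at most 4 called genes per list and comparison, by size, were to be named, and further genes are said to be so. Likeness was limited to 3 genes per called member.

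The members, the pathway and marker lists and the tests were chosen with earlier results of these data known. Alternatives were normexp background correction, quantile and spike-in centring, other filters and thresholds, the mean of the probes of a gene, an intensity trend, a fit of 2 groups, blocks for replicate number and slide row, and each array left out in turn. Replicate numbers are not shown to pair the samples. Deviations of arrays with the same number correlated at -0.17 to 0.23, and those of arrays with different numbers at -0.32 to 0.32. Promoters came from RefSeq.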

Additional observations from a re-analysis of the deposited data

How the results depend on the processing

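Spike-in centring moved the median of all probes to -0.39 for serum and to -0.31 for cordycepin plus serum, each against no serum, and left an SE of 0.50 to 0.56, so that it limits the results on Spry1 and Spry2. For cordycepin plus serum against serum, the number of Sprouty and Spred genes called at 2-fold was 0 under normexp, 0 with only probes above background on all arrays, where Spry4 was not tested, 3 with no minimum fold, and 1 to 2 with each array left out, the 2 being without the third cordycepin array. The genes passing the adjusted p numbered 1 with spike-in centring and 3 to 4 with each array left out, and 5 had an unadjusted p under 0.05. The shares of all probes under most of these settings are not given here. These counts therefore say only how far the calls moved with the setting. Against no serum, 1 gene was called under normexp, 1 with spike-in centring, 1 under the stricter filter, and 1 to 2 with each array left out (1 without the first or second cordycepin array or the first no serum array), while 1 passed the adjusted p with spike-in centring and 2 to 3 with each array left out. For serum against no serum 0 members passed under the alternatives run. Pathway genes called numbered 3 with spike-in centring for serum (7 to 9 with each array left out), 9 to 10 with each array left out for cordycepin against serum, and 11 with no minimum fold or 3 to 5 with each array left out for cordycepin against no serum.

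Signs turned only in differences that did not pass. Under normexp these were Spry3 with cordycepin against serum (0.0070), Spred1 with serum (-0.0020) and Spred3 with cordycepin against no serum (0.15). With spike-in centring serum differences were -0.079 for Spry2, -0.16 for Spry4, -0.35 for Spred1 and -0.22 for Spred3. Spred1 with serum was -0.094 as the mean of its probes and -0.16 to 0.20 with each array left out, below 0 without the first serum array (-0.05) or the first no serum array, and Spred2 was 0.02 without the second serum array and 0.11 without the second no serum array. With a replicate block the cordycepin changes of Spry1 and Spry2 were -0.93 and -0.91 (limma, adjusted p = 0.00425 and 0.00298), and 1 gene was called as before. The numbers are not shown to pair the samples.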
